A study of Homo sapiens with 18 samples.

Results

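The genes described here are those that ready TLR9 for signaling and carry its signal away from the receptor: the chaperones UNC93B1, CNPY3 and HSP90B1, the adaptors MYD88, TIRAP and TOLLIP, and the kinase family IRAK1, IRAK2, IRAK3 and IRAK4. They were chosen by name, with earlier results of these data known, and make up 10 of the 56609 gene symbols in the count table. All 10 had enough counts to be tested, among 31872 tested genes.

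TLR9 is an innate immune receptor that meets unmethylated CpG DNA in endolysosomes. HSP90B1 (gp96, the HSP90 of the endoplasmic reticulum) and its cofactor CNPY3 fold newly made Toll-like receptors, and UNC93B1 escorts the nucleic acid sensing receptors from the endoplasmic reticulum to endosomes. After ligand binding, MYD88 joins the receptor to IRAK4 and then to IRAK1 or IRAK2 in an assembly called the Myddosome, from which the signal runs to NF-kB, while IRAK3 (IRAK-M) and TOLLIP are known mainly as brakes on this step.

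HG3, MEC2 and PCL12 are EBV-positive cell lines derived from chronic lymphocytic leukemia (CLL), a leukemia of mature B cells; the IGHV genes are mutated in MEC2 and unmutated in the other two. Each line was left unstimulated or received the class B CpG oligonucleotide ODN-2006 at 2.5 μg·mL−1 for 4 h, with 3 replicates of every condition, which gave 18 libraries in 6 groups. Each line is 1 culture derived from 1 leukemia, so p-values measure only the spread between these samples. The comparisons ask whether the 3 lines enter stimulation with like levels of the receptor-proximal machinery, and whether CpG changes that machinery within 4 h.

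Library totals ran from 20382943 to 67308932 counts, and levels are given as CPM, counts scaled to a common library size by TMM factors. A count of 0 allows 3 counts, or 0.0429 to 0.155 CPM depending on the library, and such limits cover counting error only. The smallest count of any member was 3, for IRAK3, and 61 for the other 9 genes. All 8 B cell markers were detected in every line, with a summed level of 2285 to 3969 CPM over the libraries. Of 6 T cell markers, CD3D, CD3E, CD3G, CD2 and CD8A had medians below 1 CPM, while CD28 had medians of 50.1 CPM in MEC2, 19.7 CPM in PCL12 and 0.373 CPM in HG3. The PCL12 libraries differed, with a summed level of the 6 markers of 1.65 to 25.8 CPM. The CD28 Log2FC of MEC2 against PCL12 was 1.96 unstimulated and 1.61 after CpG. With replicate 1 as the only PCL12 library it was 8.35 and 6.47. The medians of all 8 monocyte markers over the 18 libraries lay below 1 CPM, and their summed level stayed between 0.612 and 5.04 CPM.

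Some libraries stood apart. The mitochondrial share was 20.2% of counts in replicate 2 of unstimulated HG3 and 19.7% in replicate 2 of stimulated MEC2, while the other 16 libraries lay between 2.82% and 9.28%. Replicates 2 and 3 of PCL12, 4 libraries, carried transcripts nearly lacking in PCL12 replicate 1. There, 47 MEC2 genes chosen for their low level in replicate 1, with the 10 members left out, had medians of 27.4% to 30.4% of the MEC2 level. Another 32 genes, high in PCL12 replicate 1 and low in MEC2, had medians of 65.2% to 73.3% of their replicate 1 level in the same 4 libraries. Calls of named genes that rest on PCL12 are therefore also given with replicate 1 alone, a fit in which the lone library of a group is assumed to vary like the other groups.

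**Figure D1:**
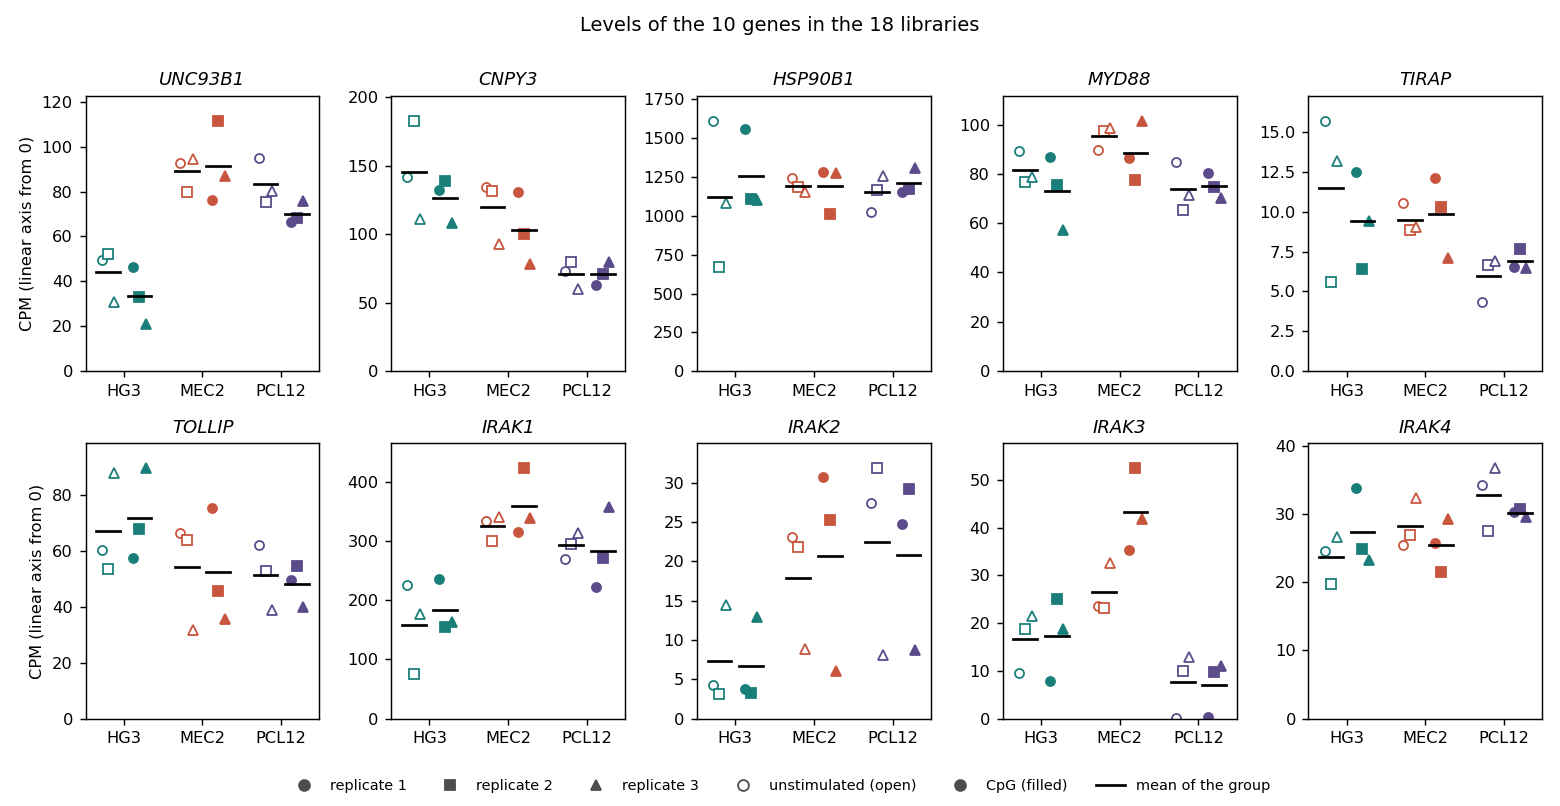
CPM of the 10 genes (1 panel each, linear axis from 0) in HG3, MEC2 and PCL12, with open symbols for unstimulated and filled symbols for CpG-stimulated libraries, symbol shape for the replicate number and a bar at the mean of each group of 3. UNC93B1 and IRAK1 sit lower in HG3 than in MEC2, CNPY3 is lowest in PCL12, and open and filled symbols of a line overlap in all panels but that of IRAK3 in MEC2.

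Among the chaperones, UNC93B1 was about 2 times as abundant in MEC2 and PCL12 as in HG3, CNPY3 was lower in PCL12 than in HG3, and HSP90B1 showed no detectable difference between the lines. Both differences were also called in CpG-stimulated cells. By edgeR the adaptors gave no call between lines, and of the IRAK kinases IRAK1 alone was called, higher in MEC2 than in HG3. In unstimulated PCL12 against HG3, DESeq2 also called TIRAP, and DESeq2 and limma-voom called IRAK1. Limma-voom called IRAK3 in stimulated MEC2 against PCL12 (Log2FC 4.14, adjusted p = 0.0189), where edgeR gave 2.63 (adjusted p = 0.411) and DESeq2 2.63 (adjusted p = 0.128).

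UNC93B1 (chr11:67991100-68004982, minus strand, GRCh38) is the transmembrane escort on which TLR9, TLR7 and TLR8 depend to leave the endoplasmic reticulum. Unstimulated HG3 libraries had 49.3, 52.2 and 30.7 CPM, MEC2 libraries 92.5, 79.9 and 94.6 CPM, and PCL12 libraries 94.9, 75.3 and 80.1 CPM. Every MEC2 and PCL12 library lay above every HG3 library. The group means were 44.1 ± 11.7 CPM in HG3, 89.0 ± 7.95 CPM in MEC2 and 83.4 ± 10.2 CPM in PCL12 (SD, n = 3 each). By edgeR's quasi-likelihood test, UNC93B1 was 2.02-fold higher in MEC2 than in HG3 (95% interval 1.38 to 2.95, adjusted p = 0.0122) and 1.89-fold higher in PCL12 than in HG3 (1.30 to 2.76, adjusted p = 0.0245). In bulk RNA, fewer cells with a transcript and less of it per cell cannot be told apart.

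After CpG the order of the lines was kept. UNC93B1 stood at 46.2, 33.2 and 21.2 CPM in HG3, at 76.3, 112 and 86.9 CPM in MEC2 and at 66.4, 68.3 and 76.0 CPM in PCL12. The groups of MEC2 and PCL12 did not overlap with that of HG3, and their Log2FC against HG3 was 1.45 (SE 0.27, adjusted p = 0.000471, edgeR) and 1.07 (SE 0.27, adjusted p = 0.0087, edgeR). The MEC2 and PCL12 levels of UNC93B1 could not be told apart in unstimulated cells, with a Log2FC of 0.09 and a 95% interval of −0.45 to 0.63. Replicate 3 was the lowest HG3 library in both conditions, and without it the unstimulated difference lost its call in MEC2 (Log2FC 0.81, adjusted p = 0.0784, edgeR) and in PCL12 (0.72, adjusted p = 0.135, edgeR). The stimulated PCL12 difference lost its call without it too (0.82, adjusted p = 0.0869, edgeR), and the unstimulated one without PCL12 replicate 1 (0.81, adjusted p = 0.106, edgeR). With replicate 1 as the only PCL12 library, the PCL12 Log2FC was 1.12 in unstimulated cells (adjusted p = 0.136, edgeR) and 0.99 after CpG (adjusted p = 0.241, edgeR).

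CNPY3 (chr6:42929480-42939294, plus strand) encodes a small luminal protein that works with HSP90B1 on Toll-like receptors. Its unstimulated levels were 142, 183 and 111 CPM in HG3, 134, 132 and 92.9 CPM in MEC2, and 73.1, 79.4 and 59.7 CPM in PCL12. All PCL12 libraries lay below all libraries of the other lines, while HG3 and MEC2 overlapped. PCL12 had 70.7 ± 10.0 CPM against 145 ± 36.1 CPM in HG3 (SD, n = 3 each), a Log2FC of −1.04 (SE 0.25, adjusted p = 0.00625, edgeR). MEC2, at 119.6 ± 23.2 CPM, was in between, 0.76 above PCL12 on the log2 scale (SE 0.25, adjusted p = 0.144, edgeR) and −0.28 from HG3 (SE 0.25, adjusted p = 0.54, edgeR).

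In stimulated cells CNPY3 was at 132, 139 and 108 CPM in HG3, 131, 99.9 and 78.6 CPM in MEC2, and 63.3, 70.7 and 79.4 CPM in PCL12. The Log2FC of PCL12 against HG3 was −0.83 there (SE 0.25, adjusted p = 0.0336, edgeR), again without overlap of those groups. The unstimulated value for CNPY3 was −0.92 without PCL12 replicate 3 (adjusted p = 0.0504, edgeR), and −0.97 with replicate 1 as the only PCL12 library (adjusted p = 0.266, edgeR). The stimulated call was lost without HG3 replicate 1 or 2 or any of the PCL12 libraries, at values of −0.76 to −0.91 and adjusted p-values of 0.0616 to 0.145 (edgeR), and with replicate 1 as the only PCL12 library (−0.99, adjusted p = 0.263, edgeR). In MEC2 against PCL12, unstimulated CNPY3 was called without the 2 libraries richest in mitochondrial counts (adjusted p = 0.0443, edgeR), and stood at 0.68 with PCL12 replicate 1 alone (adjusted p = 0.651, edgeR).

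HSP90B1 (chr12:103930107-103953931, plus strand) is the master folding chaperone for Toll-like receptors and integrins. Unstimulated libraries had 1612, 673 and 1082 CPM in HG3, 1242, 1185 and 1156 CPM in MEC2, and 1027, 1169 and 1259 CPM in PCL12. The lines overlapped fully, and the spread in HG3 (SD 471 CPM) came with a low value in replicate 2, the library rich in mitochondrial counts. The Log2FC was 0.09 for MEC2 against HG3 (95% interval −0.45 to 0.63) and 0.04 for PCL12 against HG3 (−0.50 to 0.58), so that a difference of more than about 0.63 on the log2 scale lay outside both intervals. After CpG the 9 levels of HSP90B1 ran from 1015 to 1562 CPM with no separation of lines.

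Unstimulated HG3 replicate 2 held the extreme of the 18 libraries for several of these genes. It had the lowest level of HSP90B1, IRAK1, IRAK2 and IRAK4 and the highest of CNPY3, so that the difference in mitochondrial share moved with them. Its part in the HG3 means was not tested beyond leaving the library out, and those values are given beside TIRAP and IRAK1.

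**Figure D2:**
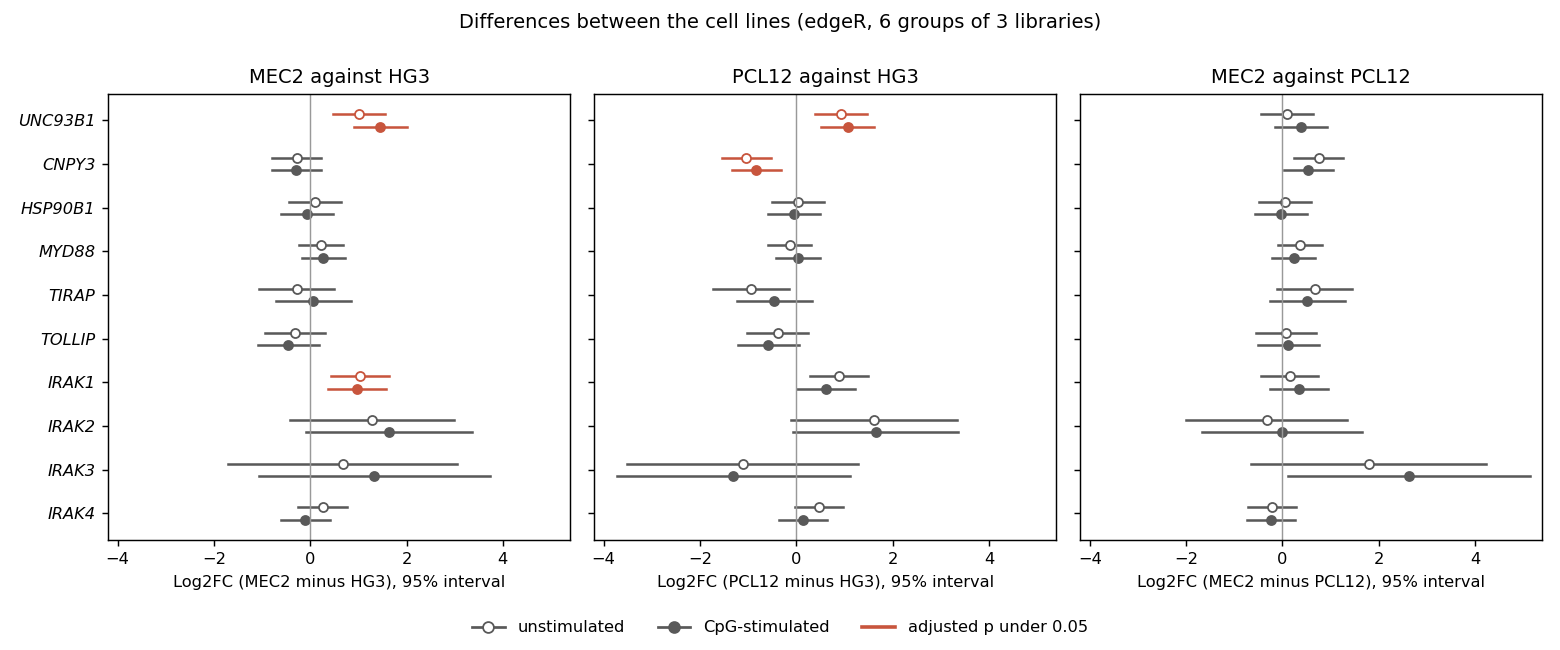
Log2FC of the 10 genes between pairs of lines in unstimulated (open) and CpG-stimulated (filled) cells, with 95% intervals from the edgeR fit; red marks an adjusted p under 0.05. Red appears for UNC93B1 and IRAK1 in MEC2 against HG3 and for UNC93B1 and CNPY3 in PCL12 against HG3, in both conditions, and the intervals of IRAK2 and IRAK3 are the widest.

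Counted together, 2 of the 10 genes were called higher in unstimulated MEC2 than in HG3, where 9.78% of all tested genes were called and 4.81% were higher. In unstimulated PCL12 against HG3, 1 was higher and 1 lower, where 9.44% of all genes were called, 4.87% higher and 4.57% lower. No member was called by edgeR, DESeq2 or limma-voom between unstimulated MEC2 and PCL12, where 2.05% of all genes were called by edgeR, and 1 member had an unadjusted p under 0.05, as did 11% of all genes. In CpG-stimulated cells the same genes were called: 2 higher in MEC2 than in HG3 (all genes 9.13%, higher 4.61%), 1 higher and 1 lower in PCL12 than in HG3 (all genes 8.65%, higher 4.49%, lower 4.16%) and 0 between MEC2 and PCL12 (all genes 1.93%), where 2 members and 11.4% of all genes had an unadjusted p under 0.05 and limma-voom called 1. The median absolute Log2FC of the 10 genes was 0.30 in unstimulated MEC2 against HG3 and 0.90 in PCL12 against HG3, beside 0.85 and 0.86 over all tested genes. By the study's definition of a DEG (nominal P under 0.01 and |Log2FC| of at least 1), 2 members passed in unstimulated MEC2 against HG3 and 1 in PCL12 against HG3, while 10.4% of all genes passed in either comparison.

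MYD88 (chr3:38138552-38143024, plus strand) is the adaptor that every Toll-like receptor but TLR3 uses. Its unstimulated libraries had 89.1, 76.8 and 78.6 CPM in HG3, 89.7, 97.3 and 98.8 CPM in MEC2, and 84.7, 65.3 and 71.6 CPM in PCL12. The MEC2 libraries lay just above all others, with 89.1 CPM in the highest HG3 library and 89.7 CPM in the lowest MEC2 library. None of these differences passed the test, the Log2FC being 0.22 for MEC2 against HG3 (95% interval −0.22 to 0.67, adjusted p = 0.584, edgeR), −0.14 for PCL12 against HG3 (−0.59 to 0.31, adjusted p = 0.779, edgeR) and 0.37 for MEC2 against PCL12 (−0.08 to 0.82, adjusted p = 0.541, edgeR). Over the 18 libraries MYD88 ranged from 57.1 to 101 CPM, a 1.78-fold span that was the narrowest of the 10 genes.

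TIRAP (chr11:126282497-126298845, plus strand), the bridging adaptor that brings MYD88 to phosphoinositide-rich membranes, was scarce. Unstimulated levels were 15.7, 5.57 and 13.2 CPM in HG3, 10.5, 8.86 and 9.03 CPM in MEC2, and 4.36, 6.63 and 6.92 CPM in PCL12. PCL12 lay below MEC2 without overlap, and overlapped with HG3 only through HG3 replicate 2. The Log2FC of PCL12 against HG3 was −0.95 (SE 0.38, adjusted p = 0.135, edgeR), and it was −1.25 without HG3 replicate 2 (adjusted p = 0.0223, edgeR). DESeq2 called the difference with all libraries (−0.96, adjusted p = 0.0375), and with PCL12 replicate 1 alone the edgeR value was −1.38 (adjusted p = 0.325). After CpG the value was −0.46 (SE 0.38, adjusted p = 0.535, edgeR). A long noncoding RNA on the opposite strand, TIRAP-AS1, overlaps the gene, and the strand setting of the read counting is not given in the sources used here.

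TOLLIP and IRAK2 varied with the replicate number within every line. TOLLIP (chr11:1274371-1309654, minus strand) encodes an endosomal adaptor that binds IRAK1 and ubiquitin, and IRAK2 (chr3:10164919-10243745, plus strand) is the kinase that sustains late Myddosome signaling. IRAK2 stood at 13.7 CPM on average in the pair of replicate 3 libraries of HG3, against 3.61 CPM in the other 4 HG3 libraries. In MEC2 and PCL12 the direction was opposite. There the replicate 3 libraries had 7.41 and 8.39 CPM on average, against 25.2 and 28.2 CPM in the others, which is 3.40 and 3.37 times as much. No replicate 3 library overlapped with the other libraries of its line.

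For TOLLIP the replicate 3 libraries had 88.8 CPM in HG3 against 59.9 CPM in the others, 33.8 against 63.0 CPM in MEC2, and 39.4 against 54.9 CPM in PCL12, again without overlap. A gene low in replicate 3 of both MEC2 and PCL12 was not rare: 7.64% of 9306 genes at 10 CPM or more on average were, and 3.83% were also high in replicate 3 of HG3, as IRAK2 and TOLLIP were. These were the only 2 members with that pattern. The labels do not state what the replicate numbers of different lines share, and the part of any such batch was not tested.

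**Figure D3:**
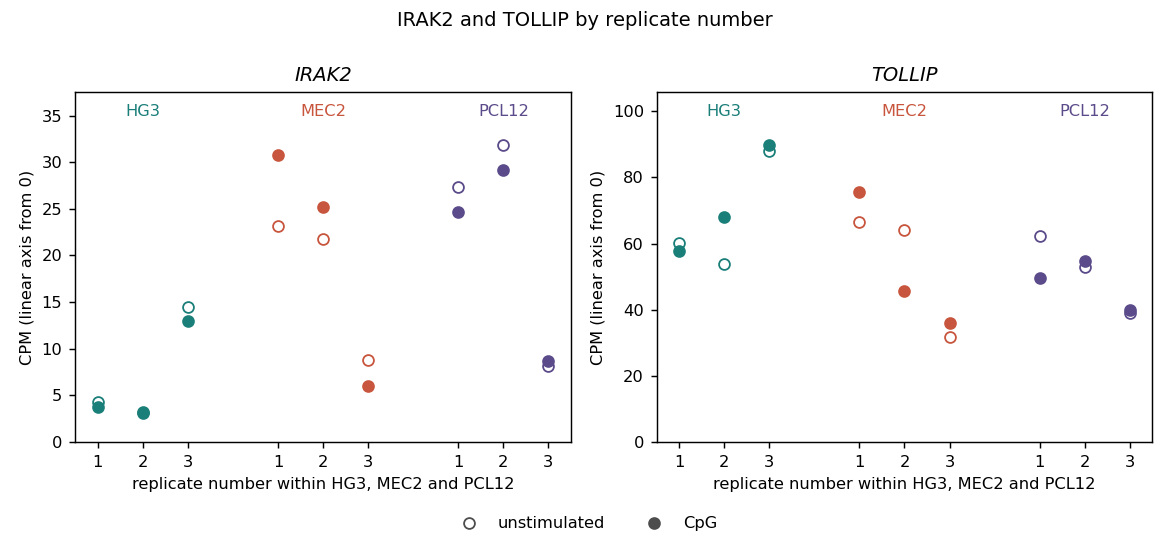
CPM of IRAK2 and TOLLIP (linear axes from 0) by replicate number within HG3, MEC2 and PCL12, open for unstimulated and filled for CpG-stimulated libraries. Replicate 3 is the highest of its line in HG3 and the lowest in MEC2 and PCL12 for both genes.

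Differences between lines in IRAK2 missed the threshold in the edgeR fit with the filter on low counts. Unstimulated levels were 4.26, 3.15 and 14.5 CPM in HG3, 23.1, 21.8 and 8.80 CPM in MEC2, and 27.3, 31.8 and 8.10 CPM in PCL12. The Log2FC against HG3 was 1.29 for MEC2 (95% interval −0.42 to 2.99, adjusted p = 0.359, edgeR) and 1.61 for PCL12 (−0.11 to 3.33, adjusted p = 0.259, edgeR). Without unstimulated HG3 replicate 3 they rose to 2.26 (adjusted p = 0.148, edgeR) and 2.59 (adjusted p = 0.106, edgeR). The same edgeR fit without the filter on low counts called both (1.27, adjusted p = 0.00738, and 1.62, adjusted p = 0.000211). With replicate 1 as the only PCL12 library and the filter kept, IRAK2 had a value of 1.91 in PCL12 against HG3 (adjusted p = 0.434, edgeR). TOLLIP gave Log2FC values of −0.31 and −0.39 in the same comparisons, with intervals of −0.94 to 0.31 and −1.02 to 0.24.

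The 250 bases upstream of the start of IRAK2 and TOLLIP are shown because both genes stood apart in replicate 3 of each line, and those of IRAK3 because its level set the lines furthest apart. They are RefSeq windows (GRCh38.p14), written 5′ to 3′ on the strand of the gene, at chr3:10164669-10164918 (plus) for IRAK2, chr11:1309633-1309882 (minus) for TOLLIP and chr12:66188964-66189213 (plus) for IRAK3. Capitals mark matches on either strand of GGGNNNNNCC, a loose form of the site that NF-kB binds, where overlapping matches run together.
IRAK2: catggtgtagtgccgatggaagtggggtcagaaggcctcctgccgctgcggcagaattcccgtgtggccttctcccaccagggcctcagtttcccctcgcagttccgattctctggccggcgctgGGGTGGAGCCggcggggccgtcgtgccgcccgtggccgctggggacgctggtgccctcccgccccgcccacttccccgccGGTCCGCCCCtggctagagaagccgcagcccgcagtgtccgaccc
TOLLIP: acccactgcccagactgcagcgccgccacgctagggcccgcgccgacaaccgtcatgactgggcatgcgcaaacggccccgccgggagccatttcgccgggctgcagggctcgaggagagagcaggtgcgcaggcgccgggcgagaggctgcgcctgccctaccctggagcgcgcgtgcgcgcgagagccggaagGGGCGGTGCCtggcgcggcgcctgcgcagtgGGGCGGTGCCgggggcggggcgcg
IRAK3: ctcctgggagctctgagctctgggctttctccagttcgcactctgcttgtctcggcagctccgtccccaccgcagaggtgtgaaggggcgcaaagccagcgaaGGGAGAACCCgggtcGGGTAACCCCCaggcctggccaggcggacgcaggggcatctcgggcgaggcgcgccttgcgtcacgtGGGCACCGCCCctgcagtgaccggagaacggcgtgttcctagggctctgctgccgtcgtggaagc
There were 2 matches in the IRAK2 window, 2 in that of TOLLIP and 5 in that of IRAK3, and at least 1 in 54.4% of all 35116 windows of this length, so that a match is a description and not a site. The AP-1 letters TGANTCA, found in 6.57% of all windows, were in none of the windows of the 8 members for which one was at hand. Of these windows that of TOLLIP held 36 CG dinucleotides and 77.2% G or C, against 24 and 72.0% for IRAK2 and 22 and 68.4% for IRAK3. RefSeq gives TOLLIP a second start, with a window at chr11:1302791-1303040 that held 9 CG dinucleotides, 59.2% G or C and 3 matches of the NF-kB letters.

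IRAK1 (chrX:154010506-154019902, minus strand) is the kinase that IRAK4 activates and that hands the signal to TRAF6. Its unstimulated levels were 225, 75.4 and 176 CPM in HG3, 335, 300.2 and 340.3 CPM in MEC2, and 271, 295 and 315 CPM in PCL12. All MEC2 and PCL12 libraries lay above all HG3 libraries. IRAK1 was 2.04-fold higher in MEC2 (325 ± 21.7 CPM) than in HG3 (159 ± 76.5 CPM; SD, n = 3 each), with a 95% interval of 1.34 to 3.11 and an adjusted p of 0.0228 (edgeR). In PCL12 (293 ± 22.1 CPM) the ratio to HG3 was 1.84 (1.21 to 2.80), and the adjusted p of 0.0576 (edgeR) missed the threshold. DESeq2 and limma-voom called this difference (adjusted p = 0.0236 and 0.0279).

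The low value in HG3 replicate 2 bears on the size of the IRAK1 difference. Without that library the Log2FC of MEC2 against HG3 was 0.71 in place of 1.03 (adjusted p = 0.0705, edgeR), and that of PCL12 against HG3 0.57 in place of 0.88 (adjusted p = 0.168, edgeR). The MEC2 call was also lost without MEC2 replicate 1 (1.03, adjusted p = 0.0561, edgeR) or 3 (1.00, adjusted p = 0.0629, edgeR). The unstimulated PCL12 difference gained a call without unstimulated HG3 replicate 1 (1.24, adjusted p = 0.0102, edgeR). It also did so without stimulated PCL12 replicate 3 (0.89, adjusted p = 0.048, edgeR) and with RLE factors (0.88, adjusted p = 0.045, edgeR). After CpG, IRAK1 was at 235, 154 and 163 CPM in HG3, 316, 423 and 339 CPM in MEC2, and 222, 271 and 357 CPM in PCL12. MEC2 again did not overlap with HG3 (Log2FC 0.96, SE 0.29, adjusted p = 0.0359, edgeR), and PCL12 did (0.62, SE 0.29, adjusted p = 0.234, edgeR). The stimulated MEC2 call was lost without replicate 2 or 3 of either line, at 0.83 to 1.01 and adjusted p-values of 0.0516 to 0.169 (edgeR), and without PCL12 replicates 2 and 3, whose spread enters the same fit (0.96, adjusted p = 0.0676, edgeR). Without the 2 libraries richest in mitochondrial counts, IRAK1 was called in stimulated PCL12 against HG3 (0.62, adjusted p = 0.0349, edgeR). With replicate 1 as the only PCL12 library, the IRAK1 value in PCL12 was 0.78 in unstimulated (adjusted p = 0.473, edgeR) and 0.28 in stimulated cells (adjusted p = 0.889, edgeR).

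IRAK4 (chr12:43758944-43798307, plus strand) is the kinase that opens the cascade. Levels in unstimulated cells were 24.5, 19.8 and 26.7 CPM in HG3, 25.5, 26.9 and 32.4 CPM in MEC2, and 34.2, 27.5 and 36.7 CPM in PCL12. PCL12 lay above HG3 without overlap, with a Log2FC of 0.47 (95% interval −0.03 to 0.98, adjusted p = 0.26, edgeR). The other pairs of lines overlapped, at Log2FC values of 0.26 for MEC2 against HG3 and −0.22 for MEC2 against PCL12. The gene shares its locus with TWF1 on the opposite strand.

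IRAK3 (chr12:66189195-66254622, plus strand) encodes IRAK-M, a pseudokinase that restrains the Myddosome and is best known from macrophages. It had the largest differences between libraries of the 10 genes. MEC2 had 23.6, 23.3 and 32.7 CPM unstimulated and 35.3, 52.4 and 41.9 CPM after CpG, the highest of the lines. HG3 had 9.63, 18.8 and 21.6 CPM and then 7.95, 25.04 and 18.8 CPM. PCL12 replicate 1 had 3 counts (0.0962 CPM, exact Poisson 95% interval 0.0198 to 0.281 CPM) unstimulated and 28 counts (0.401 CPM, 0.266 to 0.579 CPM) after CpG.

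The other 4 PCL12 libraries held 9.91 and 13.0 CPM of IRAK3 unstimulated and 9.71 and 10.97 CPM after CpG. This was 27.9% to 37.2% of the mean MEC2 level (34.9 ± 11.2 CPM, SD, n = 6 libraries of both conditions), against 0.276% and 1.15% in replicate 1. The share lay within the quartiles of the 47 other MEC2 genes in each of those 4 libraries. IRAK3 met the rule that chose those genes, so its low level in replicate 1 is not a separate finding. The part of MEC2 transcripts in the IRAK3 of PCL12 replicates 2 and 3 was not tested further.

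**Figure D4:**
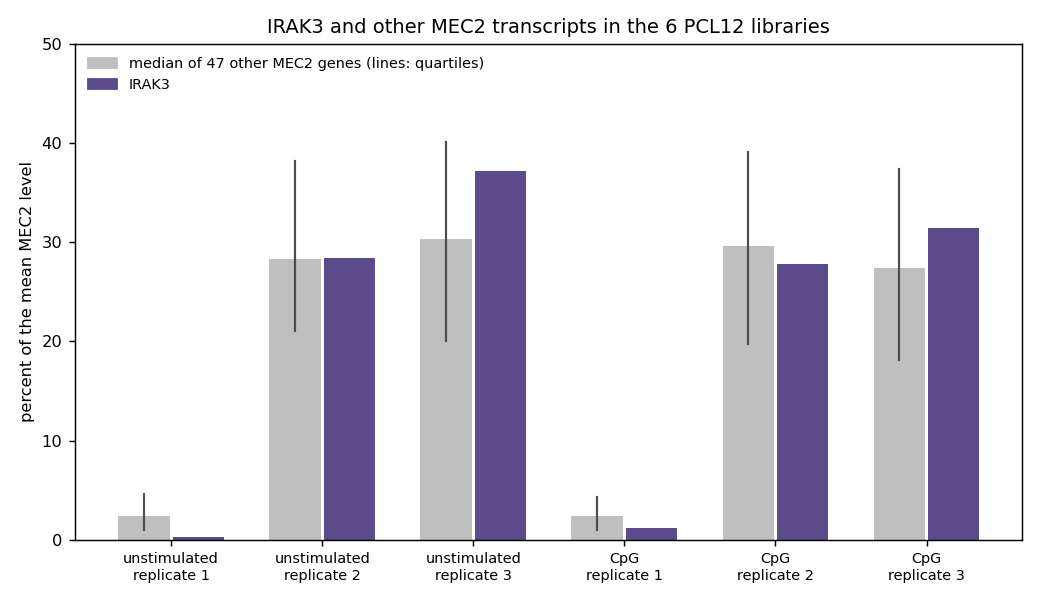
IRAK3 in the 6 PCL12 libraries as percent of its mean MEC2 level (purple bars, axis from 0), beside the median of the 47 other MEC2 genes (gray bars, lines from the first to the third quartile). Both are near 0 in replicate 1 and between 27.4% and 37.2% in replicates 2 and 3.

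The test of IRAK3 depended on these libraries. With all of them, the Log2FC of unstimulated MEC2 against PCL12 was 1.79 with a 95% interval of −0.65 to 4.23 (adjusted p = 0.582, edgeR), and that of PCL12 against HG3 was −1.12 (−3.52 to 1.29, adjusted p = 0.607, edgeR). With replicate 1 as the only PCL12 library, they were 8.03 and −7.37, and after CpG 6.74 and −5.40. IRAK3 met the rule that chose the MEC2 genes followed in PCL12. These values are therefore no separate test, and 1 library holds no spread within PCL12. Without the filter on low counts and with all libraries, the edgeR fit called both unstimulated differences (1.77, adjusted p = 3.84e-05, and −1.11, adjusted p = 0.018). In counts, the lowest unstimulated MEC2 library held 242 times the CPM of PCL12 replicate 1, with a counting interval of 82.8 to 1173 times for the 3 counts behind it. MEC2 lay above HG3 without overlap in both conditions, and the Log2FC of 0.67 (95% interval −1.70 to 3.05, adjusted p = 0.804, edgeR) did not pass the test. The value after CpG was 1.32 (−1.07 to 3.72, adjusted p = 0.554, edgeR), and it was called with replicate 1 as the only PCL12 library (1.34, adjusted p = 0.0235, edgeR) and without the filter (1.34, adjusted p = 0.00198, edgeR).

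CpG changed none of the 10 genes detectably. In HG3, MEC2 and PCL12, 0 of 10 members were called by edgeR and 0 had an unadjusted p under 0.05, and DESeq2, limma-voom and every other setting tried also called 0. Few genes were called anywhere in these comparisons, 0.00314% of the tested genes in HG3, the same share in MEC2 and 0% in PCL12, while 3.73%, 2.46% and 2.09% had an unadjusted p under 0.05. With the replicate number as a block, which pairs the libraries, the shares were 0.135%, 0.333% and 0.0471%, and again 0 members were called. For the mean effect over the 3 lines, 0.00941% of all genes were called (0.555% with the block) and 4.04% had an unadjusted p under 0.05, with 0 members in each. The stimulated libraries nonetheless carried a response: NFKBIZ, which encodes the NF-kB cofactor IkBz, was higher after CpG in 9 of 9 pairs of libraries with the same line and replicate number. Its mean effect over the 3 lines was 1.52 on the log2 scale (SE 0.19, adjusted p = 0.000398, edgeR). The mean log2 ratio of the pairs was 0.73 ± 0.38 in HG3, 2.18 ± 0.48 in MEC2 and 1.70 ± 0.43 in PCL12 (SD, n = 3 each). The paper reports no significant rise of NFKBIZ in HG3.

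The intervals without the block limit how large an undetected change of the mean over the 3 lines could be. In a single line they were wider. In HG3 they were −0.94 to 0.15 for UNC93B1, −1.07 to 0.49 for TIRAP and −0.39 to 0.81 for IRAK1. For the mean effect over the 3 lines, the 95% interval of the Log2FC without the block was −0.34 to 0.18 for MYD88, −0.31 to 0.27 for IRAK4, −0.24 to 0.45 for IRAK1, −0.23 to 0.39 for HSP90B1, −0.43 to 0.16 for CNPY3 and −0.51 to 0.11 for UNC93B1. TOLLIP lay between −0.38 and 0.34 and TIRAP between −0.46 and 0.44. For IRAK2 (−0.98 to 0.95) and IRAK3 (−1.16 to 1.58) the intervals without the block allow changes of nearly 1 log2 unit or more. With the replicate block they were −0.34 to 0.26 for IRAK2 and −0.02 to 0.57 for IRAK3. That fit drew the spread almost wholly from the trend over all genes. Its intervals, here and below, thus hold little of a gene's own spread between pairs and set no limit on a change. For IRAK3, the log2 ratios of the 3 PCL12 pairs had an SD of 1.27.

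**Figure D5:**
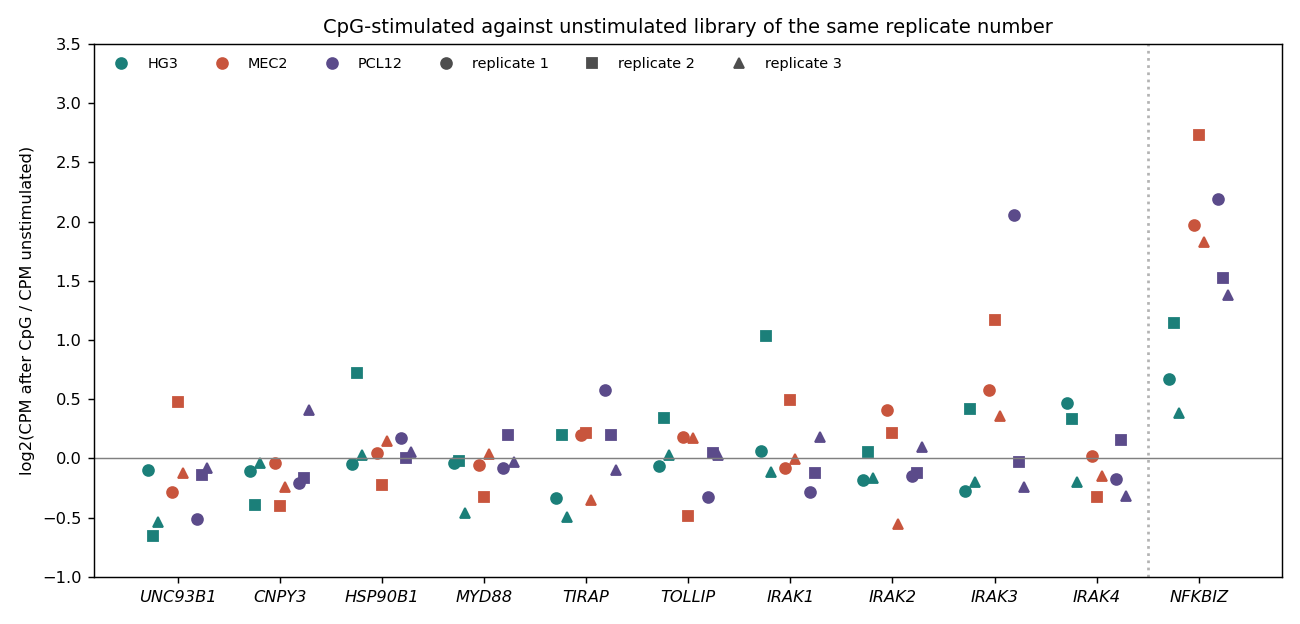
Log2 ratio of CPM in the CpG-stimulated over the unstimulated library of the same line and replicate number, for the 10 genes and, right of the dotted line, NFKBIZ; colors mark lines and shapes replicate numbers. Medians of the 10 genes lie between −0.17 and 0.36, and all 9 values of NFKBIZ lie between 0.38 and 2.73.

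UNC93B1 and CNPY3 were lower after CpG in 8 of 9 pairs each. MYD88 was higher in 2 of 9 pairs, HSP90B1 in 7 of 9 and the other members in 4 to 6 of 9. The share of all genes with such splits was not computed, so these counts are a description. The mean Log2FC of UNC93B1 was −0.20 (SE 0.15, adjusted p = 1.00, edgeR). It was lower in 3 of 3 HG3 pairs, with a mean log2 ratio of −0.43 ± 0.29, in 3 of 3 PCL12 pairs (−0.24 ± 0.24) and in 2 of 3 MEC2 pairs (0.03 ± 0.40; SD, n = 3 each). With the block, the HG3 value had a 95% interval of −0.83 to −0.02 and an adjusted p of 1 (edgeR), and 3.59% of all genes had an unadjusted p under 0.05 there. For CNPY3 the mean effect was −0.14 (SE 0.14, adjusted p = 1.00, edgeR).

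IRAK3 was higher after CpG in 3 of 3 MEC2 pairs, and the MEC2 groups did not overlap, with 35.3 CPM in the lowest stimulated and 32.7 CPM in the highest unstimulated library. This was the only member whose stimulated and unstimulated groups did not overlap in a line. Of the 9306 genes at 10 CPM or more on average, 5.2% did not overlap in MEC2, 1.76% in HG3 and 2.84% in PCL12. The Log2FC was 0.70 (95% interval −1.66 to 3.07, adjusted p = 1, edgeR), and with the replicate block 0.70 (0.21 to 1.19, adjusted p = 0.533, edgeR), where 3.41% of all genes had an unadjusted p under 0.05. The largest single increase, in replicate 2, came from the library with 19.7% mitochondrial counts. In PCL12 replicate 1 the log2 ratio of 2.06 rested on 3 and 28 counts, and the other PCL12 pairs gave −0.03 and −0.24. No difference in a CpG effect between lines passed the test for any member, while 0%, 0.00314% and 0% of all genes passed in MEC2 against HG3, PCL12 against HG3 and MEC2 against PCL12. For IRAK3 the effect in MEC2 exceeded that in HG3 by 0.65 (95% interval −2.69 to 4.00, adjusted p = 1, edgeR), or by 0.72 with the block (0.03 to 1.42, adjusted p = 1, edgeR).

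TLR9 itself gave 0 to 10 counts per library, with 0 counts in 4 of 6 HG3, 4 of 6 MEC2 and 3 of 6 PCL12 libraries. It passed the filter on low counts and is among the 12 client receptors and partners counted below. At such counts its levels are not compared here. In GENCODE release 44 a readthrough gene covers TLR9 on the same strand, and how shared reads were counted is not given in the sources used here. Of the receptors that the chaperones serve, TLR10, TLR6 and TLR1 and the UNC93B1 client TLR7 were present in every library. TLR7 had 13.4 ± 7.81 CPM in unstimulated HG3 and 33.9 ± 9.38 CPM in PCL12 (SD, n = 3 each), a Log2FC of 1.34 (SE 0.36, adjusted p = 0.0147, edgeR) that stayed called with PCL12 replicate 1 alone (1.71, adjusted p = 0.0303, edgeR). LY86, which encodes the partner of the TLR4 relative CD180, was lower than in HG3 in MEC2 (−1.21, SE 0.32, adjusted p = 0.0141, edgeR) and in PCL12 (−1.52, SE 0.32, adjusted p = 0.00212, edgeR, and −1.21, adjusted p = 0.244, with replicate 1 alone). LY96 (MD-2), the partner of TLR4, was scarce and lower in PCL12 (1.31 ± 0.976 CPM) than in HG3 (5.89 ± 2.05 CPM; SD, n = 3 each), with a Log2FC of −2.17 (SE 0.62, adjusted p = 0.0243, edgeR, and −2.45, adjusted p = 0.212, with replicate 1 alone). Of the 12 client receptors and their partners, 0 were higher and 1 lower in MEC2 than in HG3, and 1 higher and 2 lower in PCL12, where 9.78% and 9.44% of all tested genes were called.

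Downstream of the Myddosome, 1 of 18 genes from TRAF6 to the IKK subunits and the interferon regulatory factors was called in each of the 3 unstimulated comparisons, beside 9.78% of all tested genes in MEC2 against HG3, 9.44% in PCL12 against HG3 and 2.05% in MEC2 against PCL12. IRF5, the transcription factor that MYD88 and IRAK kinases switch on, was at 105 ± 6.19 CPM in unstimulated MEC2, 271 ± 42.0 CPM in HG3 and 313 ± 50.1 CPM in PCL12 (SD, n = 3 each). Its Log2FC was −1.36 for MEC2 against HG3 (SE 0.26, adjusted p = 0.000674, edgeR) and −1.57 for MEC2 against PCL12 (SE 0.26, adjusted p = 0.000695, edgeR), and it was the gene called in both. With PCL12 replicate 1 alone the latter value was −1.82 (adjusted p = 0.00463, edgeR). After CpG, IRF5 was called in MEC2 against PCL12 (−1.11, SE 0.26, adjusted p = 0.0189, edgeR; −1.51, adjusted p = 0.0277, with replicate 1 alone) and not against HG3 (−0.70, SE 0.26, adjusted p = 0.1004, edgeR). MAP3K7 (TAK1), the kinase that TRAF6 activates, was the gene called in PCL12 against HG3 (−0.89, SE 0.23, adjusted p = 0.0112, edgeR; −1.18, adjusted p = 0.0784, with replicate 1 alone). The median Log2FC of the 18 genes was 0.08, 0.00 and 0.11 in the 3 unstimulated comparisons, beside 0 for all tested genes in each.

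Among 10 inhibitors of this pathway, 2 were higher and 2 lower in unstimulated MEC2 than in HG3, and 0 were higher and 3 lower in PCL12, beside 9.78% and 9.44% of all tested genes called. SOCS1, a suppressor of cytokine and Toll-like receptor signaling, was at 102 ± 38.7 CPM in unstimulated HG3, 25.2 ± 6.14 CPM in MEC2 and 35.3 ± 6.97 CPM in PCL12 (SD, n = 3 each), a Log2FC of −2.02 (SE 0.32, adjusted p = 6.53e-05, edgeR) and −1.53 (SE 0.31, adjusted p = 0.00131, edgeR). TNFAIP3 (A20), a ubiquitin editor that removes the chains TRAF6 builds, was lower than in HG3 in MEC2 (−1.40, SE 0.42, adjusted p = 0.0347, edgeR) and in PCL12 (adjusted p = 0.00727, edgeR). INPP5D (SHIP-1), a lipid phosphatase, was higher in MEC2 than in HG3 (1.04, SE 0.27, adjusted p = 0.0126, edgeR), and so was the deubiquitinase USP2, at 304 ± 135 CPM against 0.691 ± 0.787 CPM (Log2FC 9.00, SE 2.13, adjusted p = 0.0165, edgeR). NRROS (LRRC33), a relative of the Toll-like receptors that holds them back, was lower in PCL12 than in HG3 (−1.47, SE 0.31, adjusted p = 0.00165, edgeR). With replicate 1 as the only PCL12 library, NRROS (−1.91, adjusted p = 0.0117, edgeR) and TNFAIP3 (−2.50, adjusted p = 0.00673, edgeR) stayed called and SOCS1 did not (−1.42, adjusted p = 0.109, edgeR). The median Log2FC of the 10 inhibitors was −0.43 in MEC2 and −0.58 in PCL12 against HG3, beside 0 for all tested genes.

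The early NF-kB target genes were a list of 10 that shares TNFAIP3 with the inhibitors. In unstimulated cells, 6 were called lower in MEC2 than in HG3 and 3 in PCL12, beside 4.97% and 4.57% of all tested genes. None was called higher, where 4.81% and 4.87% of all genes were, and the median Log2FC was −1.35 and −0.95, beside 0 for all tested genes. NFKBIZ was at 148 ± 68.8 CPM in HG3, 28.5 ± 7.16 CPM in MEC2 and 45.3 ± 13.2 CPM in PCL12 (SD, n = 3 each), a Log2FC of −2.38 (SE 0.33, adjusted p = 1.38e-05, edgeR) and −1.71 (SE 0.33, adjusted p = 0.000614, edgeR; −1.95, adjusted p = 0.0233, with replicate 1 alone). NFKBIE, which encodes an inhibitor of NF-kB, had a Log2FC of −1.49 in MEC2 (SE 0.31, adjusted p = 0.00158, edgeR) and of −1.89 in PCL12 (SE 0.31, adjusted p = 0.000121, edgeR; −2.25, adjusted p = 0.0035, with replicate 1 alone). NFKB2 (−1.48, adjusted p = 0.00441, edgeR), which encodes the p100 subunit precursor, and NFKBIA (−1.30, adjusted p = 0.0335, edgeR), which encodes IkBa, were also lower in MEC2 than in HG3. After CpG, 1 of the 10 targets was called higher in MEC2, NFKBIZ (2.20, adjusted p = 0.0154, edgeR), and 0 in the other lines, where the shares of all genes called in either direction were 0.00314% in MEC2, 0.00314% in HG3 and 0% in PCL12. The median Log2FC of the targets was 0.90 in MEC2, 0.43 in PCL12 and 0.23 in HG3, beside 0, 0.02 and 0 for all tested genes. Over the 3 lines together, NFKBIZ and the RNase gene ZC3H12A (1.29, SE 0.18, adjusted p = 0.00161, edgeR) were called.

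Genes of protein folding and receptor transport are read beside the same 9.78% and 9.44% of all genes. Of 16 folding genes of the endoplasmic reticulum, 1 was called in each comparison with HG3, the disulfide isomerase PDIA3 in unstimulated MEC2 (0.97, SE 0.27, adjusted p = 0.0178, edgeR) and its relative PDIA6 in PCL12 (1.23, SE 0.32, adjusted p = 0.012, edgeR; 1.15, adjusted p = 0.233, with replicate 1 alone). Of 12 genes of endosomal receptor transport and cleavage, 0 were called in MEC2 against HG3, where the solute carrier SLC15A4 had the smallest p-value (−0.74, adjusted p = 0.0757, edgeR), and 2 were higher in PCL12: the late endosomal LAMTOR1 (0.89, SE 0.24, adjusted p = 0.0146, edgeR) and the protease CTSB (1.15, SE 0.37, adjusted p = 0.0444, edgeR). With replicate 1 alone the value of CTSB was 1.69 (adjusted p = 0.0339, edgeR) and that of LAMTOR1 1.09 (adjusted p = 0.102, edgeR). Of the Canopy and HSP90 paralogs, 5 of 6 could be tested and 0 were called in unstimulated cells by edgeR, with 1 at an unadjusted p under 0.05 in PCL12 against HG3, HSP90AB1, where 21.8% of all genes were. HSP90AB1 was called lower in stimulated PCL12 than in HG3 (−1.17, SE 0.35, adjusted p = 0.0332, edgeR; −1.63, adjusted p = 0.134, with replicate 1 alone). In these 7 lists, 82 genes beside the members were tested, of which 3 were higher and 9 lower in MEC2 than in HG3, and 4 higher and 8 lower in PCL12, again beside 9.78% and 9.44% of all tested genes called in either direction.

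Across the 18 libraries, the genes whose log2 CPM followed a member most closely were sought for the 3 members with the smallest adjusted p between unstimulated lines, among 9305 genes at 10 CPM or more on average. For UNC93B1 they were PVRIG (Pearson r 0.955), RELL2 (0.935) and GOLGA2P5 (0.934). CNPY3 was followed by CD37 (0.916), which encodes a B cell tetraspanin, PRR5 (0.915) and CDC25B (0.896). For IRAK1 they were ZNF141 (0.954), ADCY3 (0.953) and RNF31 (0.951), the last encoding the catalytic subunit of the linear ubiquitin ligase. These correlations describe libraries that share lines, replicate numbers and depth, and carry no test.

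Chosen after their values were seen, HSPA5 (BiP), the other large chaperone of the endoplasmic reticulum, was the gene closest to HSP90B1 (r 0.897), with 385 CPM in unstimulated HG3 replicate 2 against 1214 and 722 CPM in the other unstimulated HG3 libraries. HMOX1 and SQSTM1, genes of the oxidative stress response, were closest to TOLLIP (r 0.936 and 0.921). HMOX1 had 265 and 290.3 CPM in replicate 3 of HG3 against 103 to 123 CPM in its other libraries, and 3.22 to 11.2 CPM in replicate 3 of MEC2 and PCL12 against 37.3 to 93.5 CPM in theirs. SQSTM1 was split in the same way, at 1084 and 1099 CPM in replicate 3 of HG3 and at 111 to 176 CPM in that of MEC2 and PCL12.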

How the data were processed

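RNA of the 18 samples was sequenced, and the values used are gene counts deposited by the authors without normalization, 1 column per sample, all assigned by the sample labels. The submitters' processing notes name FastQC, MultiQC, Trimmomatic, STAR, featureCounts and the hg38 build, without versions. The paper names a Qiagen kit and a stranded reverse protocol and the labels a Promega kit and Lexogen QuantSeq, a 3′ method, so levels were not compared between genes. Multi-mapped reads could blur 2 genes: counts on annotated copies came to 0.309% of those of UNC93B1 and 0.114% of those of HSP90B1.

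Genes with at least 10 counts over the 18 libraries (31872) were fitted in edgeR 4.0.16 (R 4.3.3; TMM factors, 1 mean for each of 6 groups, robust quasi-likelihood test, 12 residual degrees of freedom), with Benjamini-Hochberg adjustment over all of them and a threshold of 0.05. Standard errors and 95% intervals of a Log2FC were derived from the F statistic. Correlations used log2 CPM with a prior count of 2. Alternatives were DESeq2 1.42.0, limma-voom (limma 3.58.1), a replicate block, RLE factors, other filters, each library left out, PCL12 replicates 2 and 3 left out, the libraries richest in mitochondrial counts left out, and each line alone. The methods were tested on simulated data. Tables were made in Python 3.11.15.

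The series description says that each replicate series held 1 stimulated and 1 unstimulated sample, so numbers pair samples within a line. After removal of group means, such pairs correlated at 0.0579 to 0.203 in HG3, −0.0785 to 0.327 in MEC2 and 0.149 to 0.216 in PCL12. The 47 MEC2 genes followed in PCL12 were those with a minimum of 20 CPM over the MEC2 libraries whose level in PCL12 replicate 1 was no more than 10% of the MEC2 mean. The fit with the block drew the spread almost wholly from the trend over all genes.

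All 10 members are named with their values; of other pathway lists, up to 4 genes with the smallest adjusted p past the threshold in a comparison described are named, otherwise the gene with the smallest nominal P, and genes most like a member are given for the 3 members with the smallest adjusted p between unstimulated lines. Members and lists were chosen with earlier results of these data known. TASL and LRRC33 were matched by older symbols. Promoter windows come from RefSeq and positions from GENCODE release 44 on GRCh38, with windows at hand for 8 of the 10 members.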

Additional observations from a re-analysis of the deposited data

How the results depend on the processing

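Beside the 2 members called in unstimulated PCL12 against HG3, DESeq2 called 4 (13.5% of all genes), the fit without a filter 5 (8.94%) and the fit without PCL12 replicates 2 and 3 called 1 (4.35%), and leaving out 1 library gave 1 to 3 (7.23% to 10.2%). In unstimulated MEC2 against HG3, leaving out 1 library gave 1 to 2 (7.09% to 10.5%). Between unstimulated MEC2 and PCL12, where 0 were called, the fits without a filter, without PCL12 replicates 2 and 3 and without the 2 libraries richest in mitochondrial counts called 1 each (3.20%, 1.98% and 3.40% of all genes). In stimulated cells the fit without a filter called 4 in MEC2 against HG3 (8.37%), 4 in PCL12 against HG3 (7.95%) and 1 in MEC2 against PCL12 (3.35%). Leaving out 1 library gave 1 to 2 in both stimulated comparisons with HG3 (6.65% to 11.3% in MEC2 and 6.38% to 10.5% in PCL12). Without PCL12 replicates 2 and 3, the stimulated comparisons of PCL12 with HG3 and of MEC2 with PCL12 had 1 call each (4.27% and 1.70%), and limma-voom called 1 in the latter (3.98%). With the replicate block, 0 members were called in every comparison of CpG with unstimulated cells, as without it. The block with PCL12 replicates 2 and 3 left out was chosen after seeing the data, and also called 0. The members gained without a filter were IRAK2, IRAK3 and, in unstimulated PCL12 against HG3, IRAK1. The cause of these shifts was not tested. In the comparisons with PCL12, the call made without PCL12 replicates 2 and 3 was that of IRAK3. This gene met the rule that chose the MEC2 genes followed in PCL12, so that call is no separate test. Over 31 settings and 2590 values, 2498 kept their side of the threshold and their size, 22 lost a call, 26 gained one, 44 moved, and no called value changed sign, while 214 values that were not called did.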
